A study of Penicillium oxalicum with 18 samples.

Results

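Transcript levels of a nag3 deletion strain of Penicillium oxalicum were set against those of the wild-type strain 114-2 after 24 h on 2% N-acetylglucosamine (GlcNAc). Each genotype had 3 libraries. The genes described are those with at least 1 FPKM (mapped fragments scaled by gene length and by the library's total) in at least 3 of these 6 libraries, and 7979 of the 9261 identifiers in the table met that rule. In both genotypes the mycelium was pre-grown on 2% glucose for 24 h at 30 °C before its transfer to GlcNAc. The same strains on 2% glucose, and on 1% bran with 1% microcrystalline cellulose (bran-cellulose below), also had 3 libraries a group and are used only to show where the difference on GlcNAc stands apart. Nothing in the labels ties the replicates to separate cultures. P-values below therefore rest on the spread between libraries within all 6 groups, which may be technical. The function of nag3, the parent of the deletion strain and the number of transformants behind it are not stated in the labels.

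P. oxalicum is a filamentous soil fungus that secretes cellulases, xylanases and amylases. GlcNAc is the sugar unit of chitin, the polymer of fungal cell walls and insect cuticle. In fungi such as the yeast Candida albicans the sugar is taken up by a transporter, phosphorylated, freed of its acetyl and amino groups and passed to glycolysis as a phosphate of fructose, and it also acts as a developmental signal. Secreted cellulases of Penicillium are induced by cellulose and repressed by readily used sugars. The activators ClrB and XlnR and the carbon catabolite repressor CreA take part in this control. The title of the series concerns the role of nag3 in development and in the expression of cellulolytic genes.

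The table pairs no identifier with a name. The names of 13 locus tags used below were recalled from published work on strain 114-2 and are not part of the deposited data. All other tags are given by number, with no function. The deleted gene is not named in the table, so its level was not reported. No sequences are shown, since none of the sources used here holds any under these identifiers.

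FPKM sums of the 6 libraries ran from 950886 to 1083828, and 864 to 943 identifiers had a value of 0. Across the 7979 genes, which are not independent replicates, Pearson correlations of log2(FPKM + 1) were 0.960 to 0.984 among the deletion libraries, 0.981 to 0.985 among the wild-type libraries and 0.782 to 0.815 between genotypes. Deletion replicate 3 had the lowest values within its group, 0.960 to 0.969. The most abundant tag, PDE_09832, took 12.7%, 14.4% and 13.8% of the FPKM sum in the deletion libraries and 9.86%, 9.5% and 8.25% in the wild type. Median FPKM of the 7979 genes was 30.9 to 32.1 in the deletion and 26.4 to 26.9 in the wild type. The part of these library-wide values in the counts below was not tested beyond the alternative scalings. In RNA from whole mycelium, fewer cells of a kind and less RNA per cell cannot be told apart.

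Among the 7979 genes, 1380 rose in the deletion (17.3%) and 885 fell (11.1%). A gene is said to rise or fall where limma's Benjamini-Hochberg adjusted p was under 0.05 and the log2 difference, deletion minus wild type on the scale of log2(FPKM + 1), was at least 1 in size. Over all 8390 genes of the 18-library fit the shares were 16.7% higher and 10.7% lower, so the shares among the described genes are close to the background. The remaining 5714 genes were not called. By the adjusted p alone 5317 passed, beside 64.1% of all tested genes, 3407 of them higher and 1910 lower in the deletion, while 3352 genes (42%) differed by less than 0.5 on the log2 scale.

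The falls reached further than the rises. At least 2 on the log2 scale was reached by 384 risen and by 373 fallen genes. At 4 or more the counts were 52 and 81, and at 6 or more they were 8 and 28. Most of the 16 consecutive tags PDE_09227 to PDE_09242, described below, are among those 28 (median difference of the run -7.77). Neighbouring tags are counted as separate genes here. The genotypes did not overlap in 5690 genes (71.3%), with 3555 above and 2135 below the wild type, beside called shares of 16.7% and 10.7%. Over all tested genes 69% did not overlap. Libraries overlapped in 8 risen and 12 fallen genes.

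The filter itself fixes the direction of some genes. Of those that rose, 151 reached 1 FPKM in the deletion libraries alone, and of those that fell, 108 did so in the wild type alone. Genes with exactly 3 libraries at 1 FPKM or more numbered 356 and had a median level of 2.42 FPKM, against 0.85 FPKM for the 153 identifiers with exactly 2 such libraries, which were left out. Another 411 identifiers were tested without meeting the rule, and 34 of these were called.

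The balance of rises over falls depended on the scaling. As deposited, 60.9% of the called genes rose, and the median difference was 0.22 over the 7979 genes and 0.20 over the 8390 tested. Median-ratio scaling moved the median over the tested genes to -0.0032 and gave 1003 rises and 1206 falls (45.4% rises). Centring each library on its median gave 986 and 1212 (44.9% rises). Rescaling without the most abundant gene went the other way, with 1813 rises and 748 falls (70.8% rises) and a median of 0.37. Calls of single genes near the threshold that a scaling ends are named below.

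**Figure D1:**
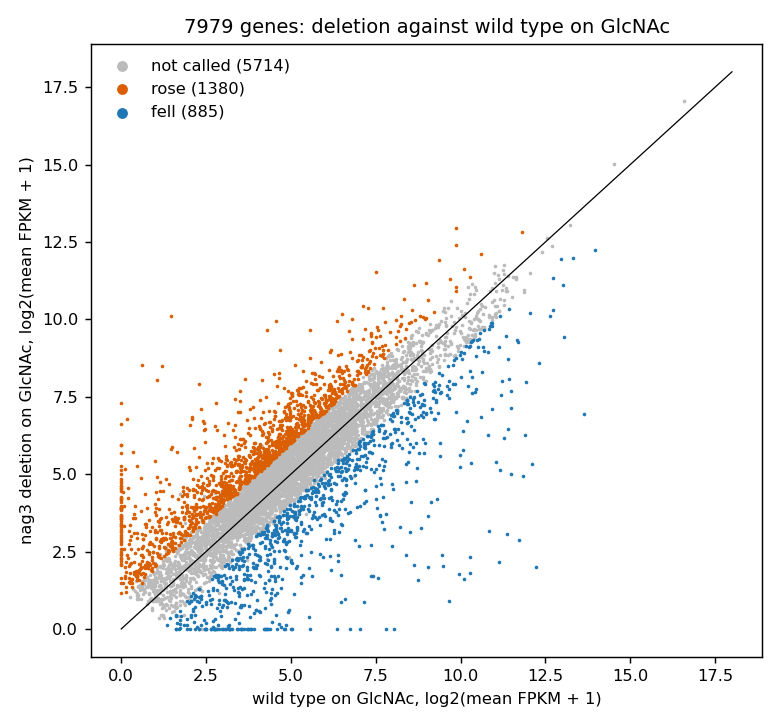
Each point is 1 of the 7979 genes, with log2(mean FPKM + 1) of the 3 wild-type libraries on the horizontal axis and of the 3 deletion libraries on the vertical axis. The 885 genes that fell spread further from the line of equal level than the 1380 that rose; points on the vertical axis are listed at 0 in the wild type and points on the horizontal axis are listed at 0 in the deletion.

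Calls were distributed unevenly over levels. Among the 334 genes with a mean of 500 FPKM or more, 91 fell (27.2%) and 42 rose (12.6%), and their median difference was -0.48. In the class from 50 to 500 FPKM 443 of 2512 rose (17.6%) and 273 fell (10.9%), with a median of 0.20. In the class from 5 to 50 FPKM 704 of 4252 rose (16.6%) and 395 fell (9.29%). Below 5 FPKM the counts were 191 and 126 of 881. On the deposited scale, falls outnumbered rises in the most abundant class and rises outnumbered falls in the other 3. These classes are a description, with no test.

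**Figure D2:**
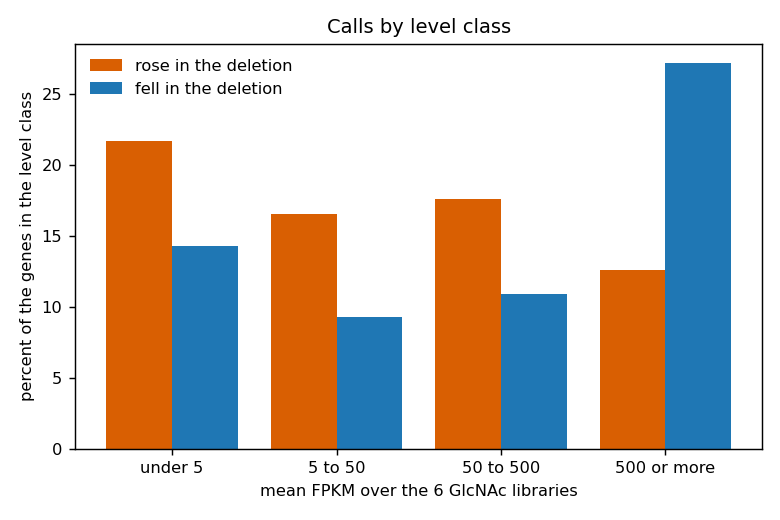
Bars give the percent of genes that rose or fell in the deletion on GlcNAc, for 4 classes of mean FPKM over the 6 GlcNAc libraries. In the class of 500 FPKM or more 27.2% fell and 12.6% rose, and in the class under 5 FPKM 14.3% fell and 21.7% rose.

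The 4 cellulase tags were at low levels in both genotypes on GlcNAc and were all higher in the deletion. Of these 2 rose and all 4 passed the adjusted p, where 16.7% of all tested genes rose and 64.1% passed. Their median log2 difference was 0.99 beside 0.20 over all tested genes. cel7A-2 (PDE_07945), a cellobiohydrolase that cuts cellobiose from chain ends, had 9.87, 9.8 and 7.67 FPKM in the deletion and 1.85, 2.78 and 2.82 in the wild type. Every deletion library lay above every wild-type library, and the tag rose by 1.54 ± 0.21 (SE; limma, adjusted p = 1.33e-05). With a pseudocount of 5 FPKM in place of 1 the difference was 0.91 and the call was lost.

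cel6A (PDE_07124), a cellobiohydrolase of another family, had 11.2, 9.81 and 12.5 FPKM in the deletion against 5.83, 4.75 and 3.44 in the wild type. The genotypes did not overlap, and the rise was 1.12 ± 0.17 (limma, adjusted p = 3.24e-05). Without wild-type replicate 3 it was 0.95 and with a pseudocount of 5 it was 0.75. Under median-ratio scaling it was 0.91, under quantile normalization 0.955 and after centring 0.89. Each of these was short of the threshold. The endoglucanases, which cut within cellulose chains, were higher without reaching the threshold of 1. cel7B (PDE_07929) had 7.09, 7.04 and 9.32 FPKM in the deletion and 4.68, 5.25 and 4.29 in the wild type, a difference of 0.61 ± 0.12 (adjusted p = 0.000311). cel5B (PDE_09226) had 11.4, 11.9 and 13.5 FPKM against 6.68, 6.43 and 5.67, a difference of 0.87 ± 0.12 (adjusted p = 1.4e-05). Both tags were higher in all 3 deletion libraries than in any wild-type library.

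For scale, bran-cellulose gave wild-type means ± SD (n = 3) of 2277 ± 128 FPKM for cel7A-2 and 1192 ± 164 FPKM for cel6A. The deletion means there were 1495 ± 140 and 631 ± 75.5 FPKM. Levels on GlcNAc in the deletion thus remained far below those of either genotype on bran-cellulose. The sign of the genotype difference was opposite there, but neither tag was called. By the adjusted p alone cel6A passed, as did cel7B (-0.68 ± 0.12, limma, adjusted p = 0.0104), while cel7A-2 and cel5B did not. The difference on bran-cellulose was -0.61 ± 0.21 for cel7A-2 (limma, adjusted p = 0.4) and -0.915 ± 0.17 for cel6A (adjusted p = 0.0151).

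Of the xylanase and β-glucosidase tags none was called on GlcNAc. xyn10A (PDE_08094), an endoxylanase, had 2.14, 2.72 and 2.76 FPKM in the deletion and 2.34, 1.82 and 2.59 in the wild type, and the genotypes overlapped (difference 0.13 ± 0.12, limma, adjusted p = 0.383). bgl1 (PDE_02736), the secreted β-glucosidase that splits cellobiose to glucose, had 182, 167 and 176 FPKM against 113, 123 and 121. All deletion libraries were higher, by 0.55 ± 0.11 on the log2 scale (adjusted p = 0.000389). bgl2 (PDE_00579), an intracellular β-glucosidase, had 11, 9.19 and 11.4 FPKM against 11.4, 9.9 and 10.6. Its libraries overlapped, and the difference was -0.015 with a 95% interval from -0.34 to 0.31 (adjusted p = 0.942).

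amy15A (PDE_01201), a glucoamylase that releases glucose from starch, had 239, 148 and 155 FPKM in the deletion and 47, 47.2 and 48.3 in the wild type. The lowest deletion library was well above the highest wild-type library, and the rise was 1.87 ± 0.22 (limma, adjusted p = 3.51e-06). The tag of its activator went the other way. amyR (PDE_03964), which codes for the activator of amylase genes, had 12.3, 9.28 and 8.93 FPKM in the deletion and 20.9, 22.4 and 22.3 in the wild type. The genotypes did not overlap, and the fall was -1.04 ± 0.20 (adjusted p = 0.000306). It stood at the threshold: without deletion replicate 2 it was -0.99, without deletion replicate 3 -0.96, with array weights -0.84, with a pseudocount of 5 -0.83 and after rescaling without the most abundant gene -0.87, each short of a call.

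The other 3 regulator tags were all higher in the deletion. clrB (PDE_05999), for the activator of cellulase genes, had 22.5, 19.4 and 19.7 FPKM against 8.46, 7.62 and 8.44. The genotypes did not overlap, and the rise was 1.23 ± 0.15 (limma, adjusted p = 3.51e-06), or 0.95 and uncalled with a pseudocount of 5. xlnR (PDE_07674), for an activator of xylanase and cellulase genes, had 27.2, 23.2 and 19.5 FPKM against 11.8, 12 and 10.2. It was higher in every deletion library, at 0.97 ± 0.14 (adjusted p = 2.06e-05), just short of a call, which it reached with deletion replicate 3 left out (1.09) or wild-type replicate 2 left out (1.01).

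creA (PDE_03168), for the carbon catabolite repressor, had 324, 345 and 268 FPKM in the deletion and 166, 145 and 149 in the wild type. Again no library overlapped, and the rise was 1.01 ± 0.17 (limma, adjusted p = 0.000125). The call did not hold under median-ratio scaling (0.77), after centring (0.79), under quantile normalization (0.97) or with a pseudocount of 5 (0.995). Leaving out a single library also ended it, for replicates 1 (0.98) and 2 (0.94) of the deletion and replicates 2 (0.98) and 3 (0.99) of the wild type. Of the 4 regulator tags 2 rose and 1 fell, where 16.7% and 10.7% of all tested genes did.

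brlA (PDE_00087), for the central regulator of conidiation (the formation of asexual spores), had 290, 335 and 213 FPKM in the deletion and 469, 499 and 367 in the wild type. All deletion libraries were lower, yet the difference of -0.68 ± 0.34 did not pass (limma, adjusted p = 0.0907). That SE pools the spread within all 6 groups, and brlA was uneven in the wild type on glucose (93.4 ± 52.8 FPKM). Over the 13 tags 5 rose and 1 fell, where 16.7% and 10.7% of all tested genes did. The adjusted p was passed by 10, which is near the 64.1% of all tested genes. The median difference was 0.87 beside 0.20 over all tested genes. The tags were taken from published work on these functions, and their results in these libraries were known when they were taken up here.

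**Figure D3:**
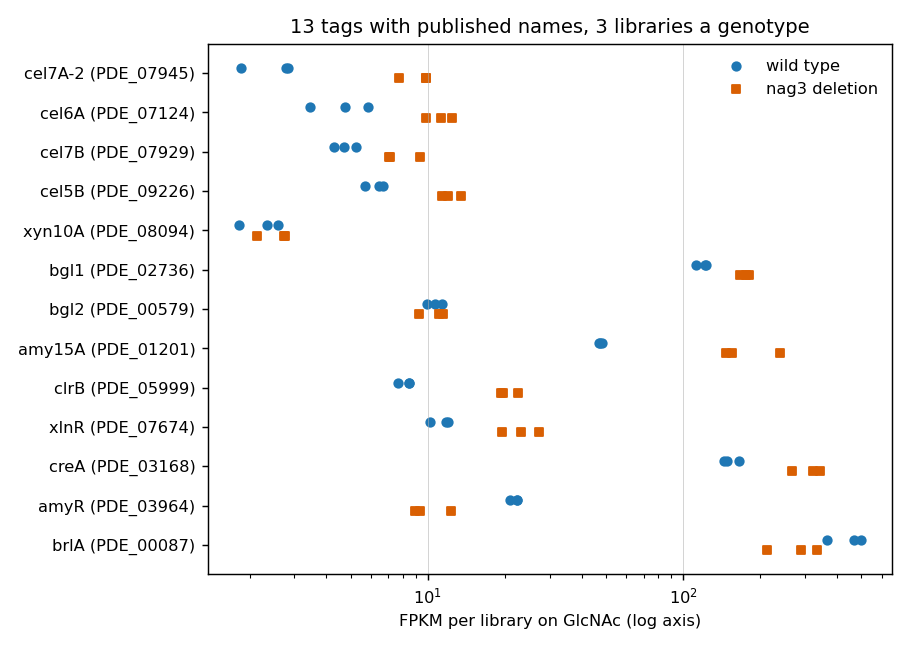
FPKM of 13 named tags in each of the 3 wild-type (circles) and 3 deletion (squares) libraries on GlcNAc, on a log axis. The genotypes overlap for xyn10A and bgl2, while amy15A ranges from 148 to 239 FPKM in the deletion against 47 to 48.3 in the wild type.

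The locus tags with the greatest rise were PDE_07475 and PDE_06899. PDE_07475 had 1025, 1040 and 1255 FPKM in the deletion and 0.82, 3.06 and 1.46 in the wild type (difference 8.71 ± 0.45, limma, adjusted p = 6.11e-10). On glucose its means were 21.9 ± 3.29 FPKM in the deletion and 57.5 ± 34.8 in the wild type, and on bran-cellulose 2 ± 0.321 and 1.61 ± 1.13. The high level was thus seen in the deletion on GlcNAc and in no other group.

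PDE_06899 had 401, 413 and 282 FPKM in the deletion and 0.34, 0.6 and 0.68 in the wild type (7.88 ± 0.17, limma, adjusted p = 7.9e-14). In the other 4 groups its means lay between 0.353 and 0.923 FPKM. It was 1 of 33 genes (0.414% of the 7979) under 1 FPKM in every wild-type library and at 10 FPKM or more in every deletion library. All 33 met the rule through the deletion libraries alone, so the filter fixed their direction. Of these 33, 21 were listed at 0 in the whole wild-type group. PDE_02787 was the second of these by level, with 121, 79 and 270 FPKM in the deletion and listed at 0 in the wild type on GlcNAc. On glucose and bran-cellulose the wild type had 30 ± 25.5 and 43.7 ± 18.4 FPKM of it.

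The opposite pattern also had 33 genes (0.414%), 21 of them listed at 0 in all deletion libraries on GlcNAc. They met the rule through the wild-type libraries alone, so the filter fixed their direction too. PDE_08849 had 235, 281 and 273 FPKM in the wild type and was listed at 0 in the deletion. PDE_07282 had 198, 218 and 252 FPKM in the wild type and was likewise listed at 0 in the deletion. Yet on glucose the deletion had 840 ± 354 FPKM of PDE_07282, so the tag was not at 0 in the strain as such.

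Abundant transcripts that rose included PDE_05075, with 7391, 7962 and 8453 FPKM in the deletion and 855, 898 and 1070 in the wild type (3.08 ± 0.15, limma, adjusted p = 2.2e-10). It was more than any wild-type group had of it, the wild-type means being 3664 ± 695 FPKM on glucose and 2789 ± 93.5 on bran-cellulose. PDE_09166 had 7189, 6486 and 8174 FPKM against 3218, 3239 and 4412 (1.02 ± 0.21, adjusted p = 0.000575). Its call was lost without deletion replicate 3 (0.93) and with either of wild-type replicates 1 and 2 left out (both 0.94). It was also lost under median-ratio scaling (0.77) and after centring (0.79).

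Among abundant transcripts that fell, PDE_04665 had 3892, 4148 and 6522 FPKM in the deletion and 17354, 18462 and 11726 in the wild type. The groups did not overlap, but the fall of -1.72 ± 0.61 (limma, adjusted p = 0.0229) was not called without deletion replicate 1 or 2 or wild-type replicate 1 or 2, with differences from -1.64 to -1.58. After quantile normalization it was -1.01 (adjusted p = 0.153). PDE_01252 had 3635, 3433 and 4998 FPKM against 9741, 9926 and 10916 (-1.36 ± 0.31, adjusted p = 0.00137), and -0.89 without a call after quantile normalization. On glucose its order was the reverse, 20030 ± 9240 FPKM in the deletion and 4041 ± 1130 in the wild type.

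Calls often lay side by side in the numbering of the locus tags. No source used here gives the tags' positions in the genome, and neighbours are known by number alone. Of the PDE tags that fell, 32.3% had a neighbouring number that also fell, against 16.5% of all 9226 PDE tags. Among those that rose the share was 36.2%, against 25.9% of all. Runs of at least 4 consecutive numbers that all fell numbered 10 and held 68 tags, and 12 runs of 52 tags rose. The runs that rose became 7 under median-ratio scaling, and the longest had 5 tags, while the 2 longest that fell had 16 each.

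The run from PDE_09227 to PDE_09242 all but lost its transcripts. The summed level of its 16 tags was 419, 302 and 477 FPKM in the deletion libraries and 28720, 28450 and 31180 in the wild type. That was 0.0432%, 0.0317% and 0.0449% of the deletion libraries' FPKM sums, and 2.65%, 2.67% and 2.9% of the wild type's. All 16 tags fell, by -10.26 to -2.68 with a median of -7.77, and they did so under every alternative tried.

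PDE_09235, the most abundant of the run, had 3.58, 1.78 and 3.61 FPKM in the deletion and 4740, 4598 and 4958 in the wild type (-10.26 ± 0.90, limma, adjusted p = 1.41e-07). PDE_09239 had 5.23, 0 and 13.5 FPKM against 3409, 2980 and 3684 (-9.54 ± 0.61, adjusted p = 5.06e-09). No other gene with 10 FPKM or more in its higher genotype fell as far. At the ends of the run, the first tag, PDE_09227, had 24.5, 18 and 22.4 FPKM against 144, 139 and 146. The last, PDE_09242, had 252, 233 and 290 FPKM against 2354, 2258 and 2571. Both end tags fell less than the inner tags and kept more of their level.

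On glucose the same 16 tags fell as well, with a summed level of 262 ± 136 FPKM in the deletion and 45650 ± 4720 in the wild type. On bran-cellulose none was called, and the sums were 34510 ± 1570 FPKM in the deletion and 32020 ± 1080 in the wild type. The difference of differences between GlcNAc and bran-cellulose was called for all 16. Against glucose it was called higher on GlcNAc for 9 of them, which fell less on GlcNAc than on glucose, lower for 1, PDE_09227, and not at all for 6. The libraries labelled deletion thus held the run at wild-type level on bran-cellulose and far below it on GlcNAc and glucose, and the labels do not say whether those libraries came from 1 transformant. Differences between GlcNAc and bran-cellulose rest on the labels in this respect.

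The flanks behaved differently. Before the run lies the number of cel5B, PDE_09226, which was higher in the deletion on GlcNAc, as given above. After it, PDE_09243 had 59.7, 50.1 and 41.1 FPKM in the deletion and was listed at 0 in every wild-type library on GlcNAc. Its mean was 46 FPKM in the deletion on glucose, and it was listed at 0 in the deletion on bran-cellulose and in the wild type on both of those media. The next number, PDE_09244, fell again, with 198 ± 23.7 FPKM in the deletion against 666 ± 16.4 (-1.75 ± 0.13, limma, adjusted p = 2.73e-08). PDE_09243 and PDE_09244 were picked out after their values were seen.

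The other run of 16, PDE_00791 to PDE_00806, fell in part. Its summed level was 2667, 2286 and 3008 FPKM in the deletion and 10240, 9999 and 11570 in the wild type. The tags fell by -4.96 to -1.20, with a median of -2.12. PDE_00806, the most abundant, had 557, 466 and 633 FPKM against 2291, 2079 and 2396 (-2.04 ± 0.40, limma, adjusted p = 0.000375). The first tag, PDE_00791, had 61.1, 55.7 and 70.8 FPKM against 339, 378 and 368. PDE_00801 had 31.4, 22.3 and 39.4 FPKM in the wild type and was listed at 0 in the deletion.

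On glucose this run was almost silent in the deletion, at a summed 7.63 ± 0.588 FPKM, while the wild-type libraries were uneven at 631, 1743 and 3410 FPKM. There 15 of the 16 tags fell. On bran-cellulose the sums were 3586 ± 211 FPKM in the deletion and 4564 ± 378 in the wild type, and no tag was called. The neighbouring numbers were lower without a call, PDE_00790 by -0.64 (limma, adjusted p = 0.174) and PDE_00807 by -1.06 (adjusted p = 0.0683). On GlcNAc PDE_00807 had 123, 112 and 121 FPKM in the deletion and 250, 214 and 292 in the wild type, without overlap. Its test uses the spread within all 6 groups, and the wild type on glucose had 10.5, 47.1 and 94.7 FPKM of it. Further out, PDE_00787, PDE_00788 and PDE_00789 before the run and PDE_00809 and PDE_00810 after it also fell on GlcNAc. The ends of the run thus rest on the calls.

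The third run that fell, PDE_01191 to PDE_01196, had 6 tags. Its sum was 23.6, 24.3 and 28.4 FPKM in the deletion and 665, 690 and 988 in the wild type, with tags falling by -5.55 to -1.58. Its sums on glucose were 3634 ± 1490 FPKM in the deletion and 4366 ± 688 in the wild type, and on bran-cellulose 101 ± 15 and 80.6 ± 9.18. Most of the glucose sums came from PDE_01194, with means of 3267 and 3538 FPKM. Of the 6 tags 1 fell on glucose, PDE_01191, with 198 ± 67.1 FPKM against 708 ± 260 (-1.81 ± 0.25, limma, adjusted p = 6.2e-05). All 6 tags had a difference on GlcNAc that was lower than that on glucose and lower than that on bran-cellulose. PDE_01191, the most abundant on GlcNAc, had 14.9, 14.1 and 19 FPKM there in the deletion against 507, 512 and 653 (-5.04 ± 0.25, limma, adjusted p = 3.86e-10).

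A run that rose began soon after it in the numbering, PDE_01198 to PDE_01201, whose last tag is amy15A. It is named after its values were seen. Its summed mean was 331 FPKM in the deletion and 70.5 in the wild type. PDE_01200 had means of 94 ± 14.8 FPKM in the deletion and 5.72 ± 2.22 in the wild type (3.86 ± 0.18, limma, adjusted p = 2.68e-10). The number between the runs, PDE_01197, was listed at 0 in all 6 libraries.

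Runs that rose were shorter. PDE_08904 to PDE_08908 had sums of 370, 646 and 429 FPKM in the deletion and 107, 107 and 135 in the wild type, and its 5 tags rose by 1.12 to 4.69. PDE_08904 itself had 83, 168 and 89.5 FPKM against 3.22, 3 and 3.4 (4.69 ± 0.47, limma, adjusted p = 5.58e-07). All 5 also rose on glucose, where the sums were higher in both genotypes, 4888 ± 1690 FPKM in the deletion and 465 ± 196 in the wild type. On bran-cellulose the genotypes had 235 ± 19 and 221 ± 14.1 FPKM with no tag called.

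PDE_06619 to PDE_06623 had sums of 434, 560 and 455 FPKM in the deletion and 27.1, 25.1 and 27.3 in the wild type. Most of that came from PDE_06621, with 325, 425 and 328 FPKM against 1.27, 1.58 and 1.1 (7.28 ± 0.14, limma, adjusted p = 2.21e-14). On glucose the sums were 68.4 ± 10.8 and 58.6 ± 10.3 FPKM. There the deletion mean of PDE_06621 was 0.143 FPKM and the wild-type mean 0.463 FPKM.

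The third, PDE_03491 to PDE_03495, had sums of 202, 258 and 232 FPKM in the deletion and 60.9, 65.5 and 58.7 in the wild type. Its most abundant tag, PDE_03492, had 82.3, 123 and 128 FPKM against 14.7, 18.8 and 15.8 (2.67 ± 0.43, limma, adjusted p = 7.37e-05). Under median-ratio scaling 3 of its 5 tags were called. In each of the 3 runs the deletion libraries lay above all wild-type libraries.

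A further stretch, picked out after its values were seen, held calls in both directions. Of the 9 tags listed from PDE_00963 to PDE_00973, 5 rose and 4 fell. PDE_00965 had 34.7, 47.2 and 36.2 FPKM in the deletion and 4197, 4532 and 4498 in the wild type (-6.78 ± 0.12, limma, adjusted p = 5.72e-15). PDE_00969 had 75.9, 92.4 and 62.2 FPKM against 3652, 4007 and 3801 (-5.64 ± 0.13, adjusted p = 1.41e-13). PDE_00970 had 4.52, 4.55 and 3.81 FPKM against 705, 732 and 686 (-7.07 ± 0.10, adjusted p = 3.96e-16). These 3 tags also fell on glucose and on bran-cellulose, where the wild type had far less of them than on GlcNAc. For PDE_00970 the wild-type means there were 46.3 and 51.7 FPKM, and the deletion means 2.44 and 2.3 FPKM.

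Before and between the fallen tags lay tags that rose. PDE_00966, between them, had 226, 276 and 211 FPKM in the deletion and 57.8, 54.9 and 35.7 in the wild type (2.26 ± 0.16, limma, adjusted p = 1.44e-08). PDE_00963, before them, had 120, 112 and 105 FPKM against 16.3, 16.6 and 9.26 (2.95 ± 0.24, adjusted p = 6.16e-08). Neither was called on glucose or on bran-cellulose. In the wild type PDE_00966 was lower on GlcNAc than its means of 62.6 and 82.8 FPKM on the other media, and in the deletion it was higher than any of these.

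**Figure D4:**
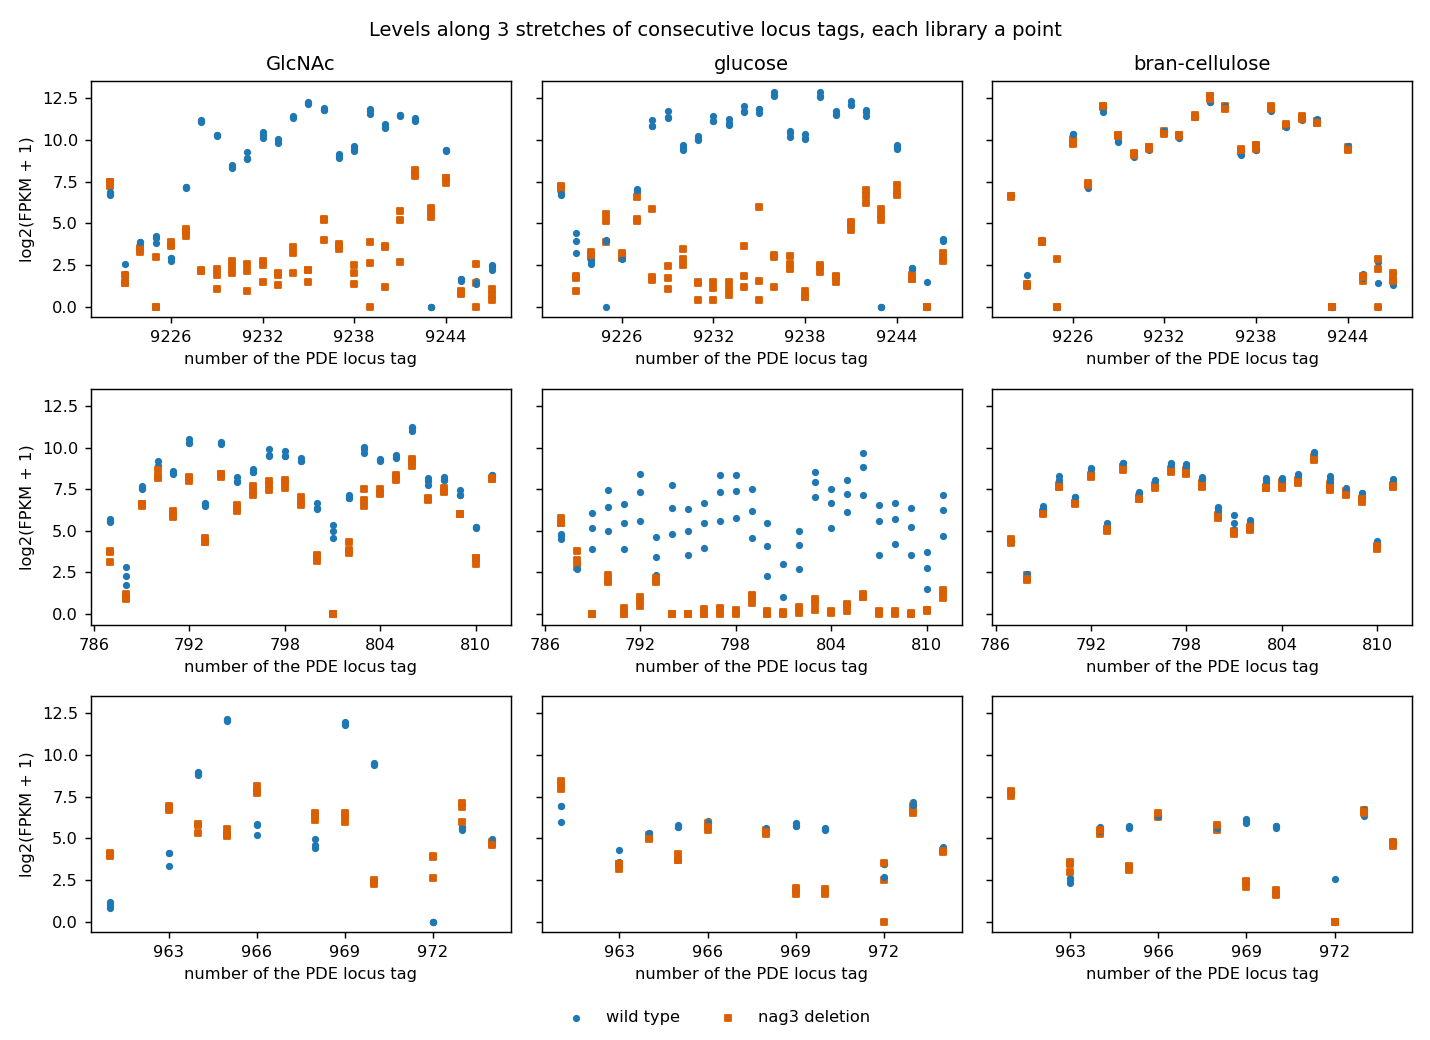
Levels on the log2(FPKM + 1) scale (vertical) along 3 stretches of PDE locus tag numbers (horizontal; rows) in the 3 media (columns), with each of the 3 wild-type (circles) and 3 deletion (squares) libraries of a group as a point. The run PDE_09227 to PDE_09242 is low in the deletion on GlcNAc and glucose and at wild-type level on bran-cellulose, and PDE_00965, PDE_00969 and PDE_00970 are high in the wild type on GlcNAc and lower on the other media.

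The genotype difference itself was compared between media by a difference of differences in the same fit. On GlcNAc it was higher than on glucose for 1263 of the 7979 genes and lower for 851, with 15.3% and 11% as the shares over all tested genes. Against bran-cellulose the counts were 1269 and 811, with 15.3% and 9.8% over all tested genes. These splits also moved with scaling. Over the 8390 tested genes the counts were 1284 higher and 922 lower against glucose, 995 and 1135 after centring, and 1860 and 738 after rescaling without the most abundant gene. Against bran-cellulose they were 1286 and 822, 896 and 1102 under median-ratio scaling, and 1624 and 712 after that rescaling. On glucose alone 4.91% of the tested genes were higher and 6.14% lower in the deletion, and on bran-cellulose 0.191% and 0.203%.

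Of the 1380 genes that rose on GlcNAc, 125 also rose on glucose and 25 fell there. The 125 were 36.9% of the 339 described genes that rose on glucose. Of the 885 that fell on GlcNAc, 213 also fell on glucose and 51 rose there, and the 213 were 43.3% of the 492 that fell on glucose. On bran-cellulose 4 of the 1380 also rose and 2 fell, and 8 of the 885 also fell and 4 rose. The shared rises were 30.8% of the 13 described genes that rose there, and the shared falls 66.7% of the 12 that fell. Among all described genes 17.3% rose and 11.1% fell on GlcNAc. The media share no library, though all comparisons share the fit's estimate of spread.

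Single genes differed between media in the size or direction of the genotype difference. PDE_06802 had 3.78, 0 and 2.32 FPKM in the deletion on GlcNAc and 995, 858 and 1470 in the wild type. On glucose its mean was higher in the deletion, 5128 ± 1270 against 2551 ± 184 FPKM, without a call (0.98 ± 0.40, limma, adjusted p = 0.0724). The difference of differences was -9.72 ± 0.57 (limma, adjusted p = 5.93e-09). PDE_00192 had 162, 140 and 109 FPKM in the deletion on GlcNAc and 10.5, 1.8 and 0 in the wild type. On glucose its order was the reverse, 1.79 ± 3.11 FPKM in the deletion and 106 ± 27.8 in the wild type (difference of differences 11.24 ± 1.07, adjusted p = 8.94e-07).

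The other extremes against glucose rested on uneven libraries. PDE_01100 had 604, 827 and 1007 FPKM in the deletion and 0, 55.7 and 0 in the wild type, with a difference of differences against glucose of 11.44 ± 3.41 (limma, adjusted p = 0.0118). Against bran-cellulose it was 8.68 ± 3.41 (adjusted p = 0.0462), a call lost when any of deletion replicates 1, 2 and 3 or wild-type replicates 1 and 3 was left out, at 7.71 to 8.88. The call was also lost with no filter, in a fit of the groups compared alone, under median-ratio scaling, after centring and with a pseudocount of 0.1, at adjusted p from 0.0516 to 0.0866. PDE_02095 had 0, 0 and 124 FPKM in the deletion and 1739, 1985 and 2583 in the wild type, with -8.79 ± 2.09 against glucose (adjusted p = 0.00279).

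Among the named tags, brlA stood out by medium. On glucose it had 3.05 ± 1.38 FPKM in the deletion and 93.4 ± 52.8 in the wild type, on bran-cellulose 253 ± 30.3 and 253 ± 44.1. The 3 deletion libraries on GlcNAc, at 213 to 335 FPKM, lay on both sides of its bran-cellulose mean. In contrast, amy15A was lower in the deletion on glucose, 68.6 ± 9.03 against 136 ± 55.2 FPKM, where on GlcNAc it was higher. Its difference on glucose was short of a call (-0.92 ± 0.22, limma, adjusted p = 0.00502), while those of bgl2 and amyR there were called. bgl2 was higher in the deletion on glucose, 26.5 ± 6.56 against 7.71 ± 0.578 FPKM, where on GlcNAc the genotypes overlapped. amyR was lower in the deletion on glucose too, 99.2 ± 41.2 against 223 ± 18.6 FPKM.

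**Figure D5:**
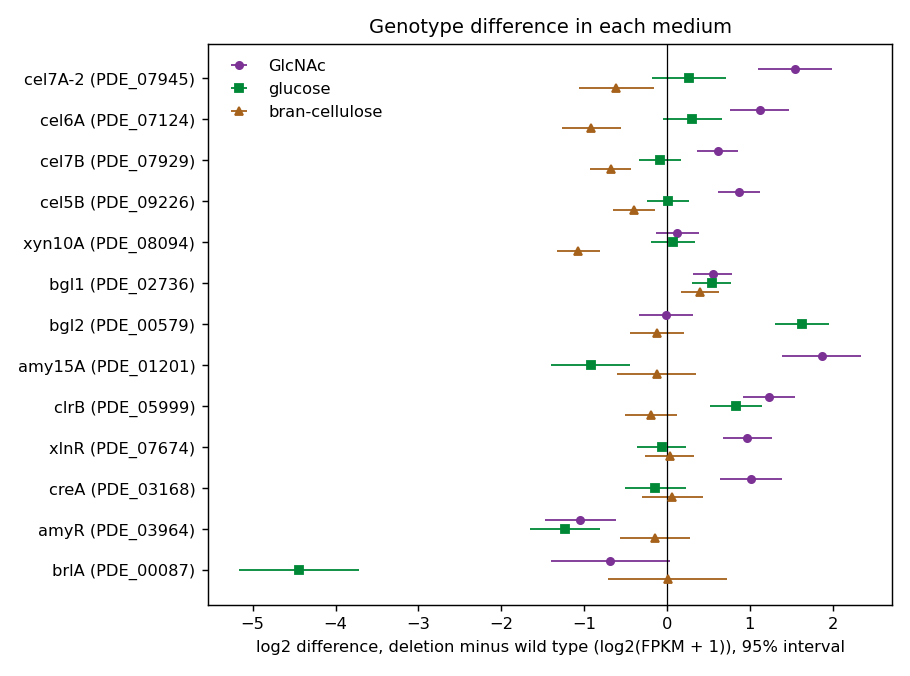
Log2 difference, deletion minus wild type, with its 95% interval from limma for 13 named tags in each of the 3 media. On GlcNAc the cellulase tags lie between 0.61 and 1.54, on bran-cellulose they lie below 0 without a call, and brlA is lowest on glucose.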

How the data were processed

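The labels' protocols describe tag libraries from oligo(dT)-purified mRNA cut with NlaIII and MmeI, while per the file headers the authors deposited FPKM values, a unit divided by gene length. The aligner, the counter, the genome build and the annotation were not named in any source used here. The growth protocol names the glucose and bran-cellulose media, and the sample labels name all 3. Absolute depth is unknown, since the FPKM table gives no read counts, and so no interval for counting error is given. Columns were matched to samples by name.

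FPKM values were used as deposited. The 8390 genes that reached 1 FPKM in 3 or more of 18 libraries entered a fit by limma 3.58.1 (R 4.3.3) of log2(FPKM + 1), with a mean for each of 6 groups and an intensity trend. Tests were two-sided, with Benjamini-Hochberg adjustment over those 8390 genes. A log2 difference on this scale understates the change of low genes. The smallest p of an exact permutation test of 3 against 3 libraries is 0.1, and none was run. The fit was first tested on simulated data. Figures were drawn with matplotlib 3.10.9.

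Named genes were 13 tags with recalled names. They also took in the 2 that rose and 2 that fell most, those most abundant, those under 1 FPKM in 1 genotype and at 10 or more in the other, the first, last and most abundant tags of the 3 longest runs in each direction, and the extremes of the differences between media. Members and lists were chosen with earlier results of these data known. No identifier of 9261 matched the reference gene table of another strain. Alternatives changed the pseudocount, filter, scaling, fit, weights, replicate block, fold threshold and each library in turn. Centring on library medians, a filter on the 6 GlcNAc libraries and rescaling without the most abundant gene were added after seeing the data.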

Additional observations from a re-analysis of the deposited data

Results flagged for a closer look

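For 11 of the 13 named tags the genotype difference on GlcNAc differed from that on another medium by limma's test of the difference itself, at an adjusted p under 0.05 and a size of at least 1, where 34.4% of all tested genes did. Over all tested genes 15.3% were higher and 11% lower against glucose, and 15.3% and 9.8% against bran-cellulose. Against bran-cellulose the difference on GlcNAc was higher for all 4 cellulase tags, by 2.15 for cel7A-2, 2.03 for cel6A, 1.29 for cel7B and 1.27 for cel5B. It was also higher for xyn10A (1.20), clrB (1.43) and amy15A (1.995). xyn10A was not called on GlcNAc but fell on bran-cellulose (-1.07 ± 0.12, limma, adjusted p = 0.00026). Its means there were 15.7 ± 1.57 FPKM in the deletion and 34 ± 1.19 in the wild type. The difference of differences of xyn10A was 0.97 with a pseudocount of 5 and 0.99 after centring, both uncalled.

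Against glucose the difference on GlcNAc was higher for brlA (3.76), amy15A (2.79), cel7A-2 (1.28), creA (1.15) and xlnR (1.03), and lower for bgl2 (-1.65). The call was lost for cel7A-2 with a pseudocount of 5 (0.76) and for creA under median-ratio scaling (0.996) and after centring (0.98). That of xlnR was lost without deletion replicate 1 (0.92) or wild-type replicate 3 (0.96), under 3 scalings (0.86 to 0.89) and with a pseudocount of 5 (0.84).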

How the results depend on the processing

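With no fold threshold, 3449 genes were higher and 1932 lower in the deletion. The differences of differences then numbered 2571 higher and 1599 lower against glucose, and 2756 and 1449 against bran-cellulose, and there were 29 runs that fell and 107 that rose. The runs that rose also changed from 12 to 5 with a pseudocount of 5, to 7 under median-ratio scaling and after centring, and to 20 after rescaling without the most abundant gene. Leaving out 1 library at a time gave 1368 to 1434 rises and 852 to 928 falls. With the replicate block, 1403 rose and 901 fell, against 1401 and 898 without it, and the call of PDE_01100 against bran-cellulose was lost (limma, adjusted p = 0.0525). Same-numbered libraries on GlcNAc correlated at -0.0537, 0.107 and 0.0119 in their deviations from group means. So few values from a single medium cannot show whether the numbers pair the samples. Of 43 named genes 31 kept the same status on GlcNAc, called or not called, under all 18 alternatives that kept the fold threshold. Of the 774 values 35 lost the call, 6 gained it and 0 changed direction. Median-ratio scaling kept 1901 of the 2299 calls in the same direction.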
